A study of Caenorhabditis elegans with 28 samples.

Results

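The C-type lectin (*clec*) genes of *Caenorhabditis elegans* were examined for rhythm, gradual change and dependence on genotype. Members were all genes of the counts table whose name is *clec-* followed by a number and whose mean was at least 10 reads over the 28 libraries. This gave 88 members of 240 *clec* genes, in a table of 20392 genes. The other 152 *clec* genes lay under the minimum, 38 of them without a single read. Just inside the minimum were *clec-142* (mean count 10.6), *clec-21* (11.5) and *clec-91* (12), and just outside it were *clec-172* (9.82), *clec-70* (9.36) and *clec-153* (8.89). Poly(A) RNA of whole, synchronized larvae was sequenced from the strain HW3527, which carries the deletion allele *ebax-1(tm2321)*, and from wild-type N2. L1 larvae hatched without food were plated on *E. coli* OP50 and kept at 25°C, and animals were taken each hour between 18 h and 31 h of feeding (1 library for each genotype at each hour, 14 per genotype).

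C-type lectins are proteins built around a compact, cysteine-bonded fold that in many animals binds sugars. In *C. elegans* the family is very large. Many members have a secretion signal, several are expressed in the intestine, and sets of them are well known as transcripts induced by bacterial or fungal infection. EBAX-1 is the worm homolog of ZSWIM8, the substrate receptor of a ubiquitin ligase built on a Cullin. ZSWIM8 acts in target-directed decay of microRNAs in mammals, and EBAX-1 has been implicated in microRNA decay in worms.

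Libraries held 5701773 to 9304062 counts in the mutant and 5120921 to 9604238 in wild type, so that 3 reads corresponded to 0.322 to 0.526 CPM (counts scaled to 1000000 per library) in the mutant and 0.312 to 0.586 CPM in wild type. The mutant runs about 3 h late, and genotypes were therefore compared at matched stage, mutant libraries of 21 to 31 h against wild-type libraries of 18 to 28 h (11 pairs). At matched stage *ebax-1* mRNA ranged from 17.9 to 49.02 CPM in the mutant (median 25.7) and from 32.3 to 137 CPM in wild type (median 67.7), and it was lower in 11 of 11 pairs (-1.29 log2, edgeR adjusted p = 6.26e-07). Reads outside the deleted part still count toward *ebax-1*. Because only 1 time course was followed per genotype, p-values below tell how far single hourly libraries stray from a fitted curve, and genotype and culture cannot be told apart. In RNA from whole animals, fewer cells of a type and less RNA per cell cannot be told apart either.

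The family was dominated by 1 gene. *clec-63* (chromosome II, 12895638 to 12897446, plus strand, WBGene00009394) averaged 1881 CPM and made up 43.6% of the summed CPM of the members. Together with *clec-50*, *clec-41*, *clec-180* and *clec-265* it made up 62.4%. Coordinates and exon lengths are those of WBcel235, while reads were counted on the older build ce10. Per kilobase of exon, *clec-63* stood at 1450 CPM, *clec-50* at 316, *clec-265* at 109, *clec-41* at 67.6 and *clec-180* at 63.3 CPM. The median member had 9.39 CPM, and 13 members had under 3 CPM. All *clec* genes together took 0.404% to 0.564% of the counts in mutant libraries and 0.317% to 0.453% in wild-type libraries.

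Oscillation was asked first, because a large part of the larval transcriptome repeats with each molting cycle. A member was called oscillating when a cosine and a sine with a period of 7 h passed an adjusted p of 0.01 (edgeR quasi-likelihood test in this and all later calls, Benjamini-Hochberg over all genes tested) and the amplitude (peak minus mid-line) reached 0.5 log2. By this rule 27 of 87 members (31.0%) oscillated in the mutant, where 18.3% of all genes tested did, and 27 of 87 (31.0%) in wild type, against 19.5% of all genes. In both genotypes 18 members oscillated, where 2038 of all genes did (13164 tested in the mutant and 14016 in wild type). Of the wild-type calls, *clec-79* and *clec-123* rested on a late rise (described with the gradual members), and 25 remained without them.

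The rhythmic members were at their highest at different times of the cycle. Of those called in the mutant, 11 had a fitted peak before 24 h and 16 after it, when peaks were placed in the period of 7 h centred on that hour. In the period centred on 21 h in wild type, 13 peaked before that hour (11 without the late risers) and 14 after it. These limits were chosen after the peaks were seen, and they differ by the 3 h used for matching. All 18 members that oscillated in both genotypes were on the same side in both, 8 with an early and 10 with a late peak. Limits set in this way make such agreement nearly certain, so it is a description and not a test. The same split was not taken over all genes.

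*clec-265*, *clec-4*, *clec-66*, *clec-67*, *clec-146*, *clec-204*, *clec-7* and *clec-17* formed the early group. *clec-4*, whose mutants are known for a changed behavioural defence against *Bacillus thuringiensis*, ranged from 10.96 to 102 CPM in the mutant (median 42.1) and from 6.85 to 124 CPM in wild type (median 21.4). It was highest at 22 h in the mutant, with a second maximum of 68.0 CPM at 29 h. In wild type it was highest at 19 h, with a second maximum of 55.5 CPM at 26 h. *clec-265* was highest at the same hours, with 262 CPM in the mutant and 304 CPM in wild type, and its second maximum was 157 CPM at 30 h in the mutant and 175 CPM at 26 h in wild type. Both genes thus completed more than a cycle in each time course, and their second maximum was lower than the first in both genotypes. *clec-41* followed the same course, with 314 CPM at 22 h in the mutant and 346 CPM at 19 h in wild type, but its amplitude of 0.51 log2 in wild type did not pass the test (adjusted p = 0.040), against 0.65 log2 in the mutant (adjusted p = 0.000463).

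The late group held *clec-180*, *clec-225*, *clec-230*, *clec-238*, *clec-21*, *clec-78*, *clec-206*, *clec-86*, *clec-80* and *clec-187*. Of the rhythmic members *clec-180* had the widest range in CPM, from 26.8 to 519 CPM in the mutant (median 140) and from 10.3 to 488 CPM in wild type (median 90.6). Its maxima came at 18 h and 25 h in the mutant (519 and 478 CPM) and at 22 h and 29 h in wild type (488 and 445 CPM). *clec-225* moved with it, from 7.96 to 77.6 CPM in the mutant (median 28.4) and from 3.71 to 86.4 CPM in wild type (median 21.1). The *clec-225* and *clec-41* genes are neighbours on the minus strand of chromosome V (13133635 to 13134886 and 13134903 to 13138101), with 16 bases between them, yet they were high at different times: *clec-225* was at 9.56 CPM in the mutant library of 22 h and at 3.71 CPM in the wild-type library of 19 h, the hours at which *clec-41* was highest. The summed level of 6 epidermal markers, none of them at 0, was highest at 26 h in the mutant and at 23 h in wild type, an hour after the nearest maximum of *clec-180*. Most of this sum came from *sqt-3*, *dpy-13* and *rol-6*, and the other markers ran differently. *dpy-7* stood at 659 CPM at 25 h in the mutant and at 747 CPM at 22 h in wild type, hours of a *clec-180* maximum. *nhr-23* and *elt-3* were at 40.5 and 27.7 CPM at 26 h in the mutant, after 137 and 77.1 CPM at 23 h. In wild type they were at 35.4 and 26.6 CPM at 23 h, after 139 and 65.3 CPM at 21 h. The part of these markers in the rhythm of the late group was not tested.

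**Figure D1:**
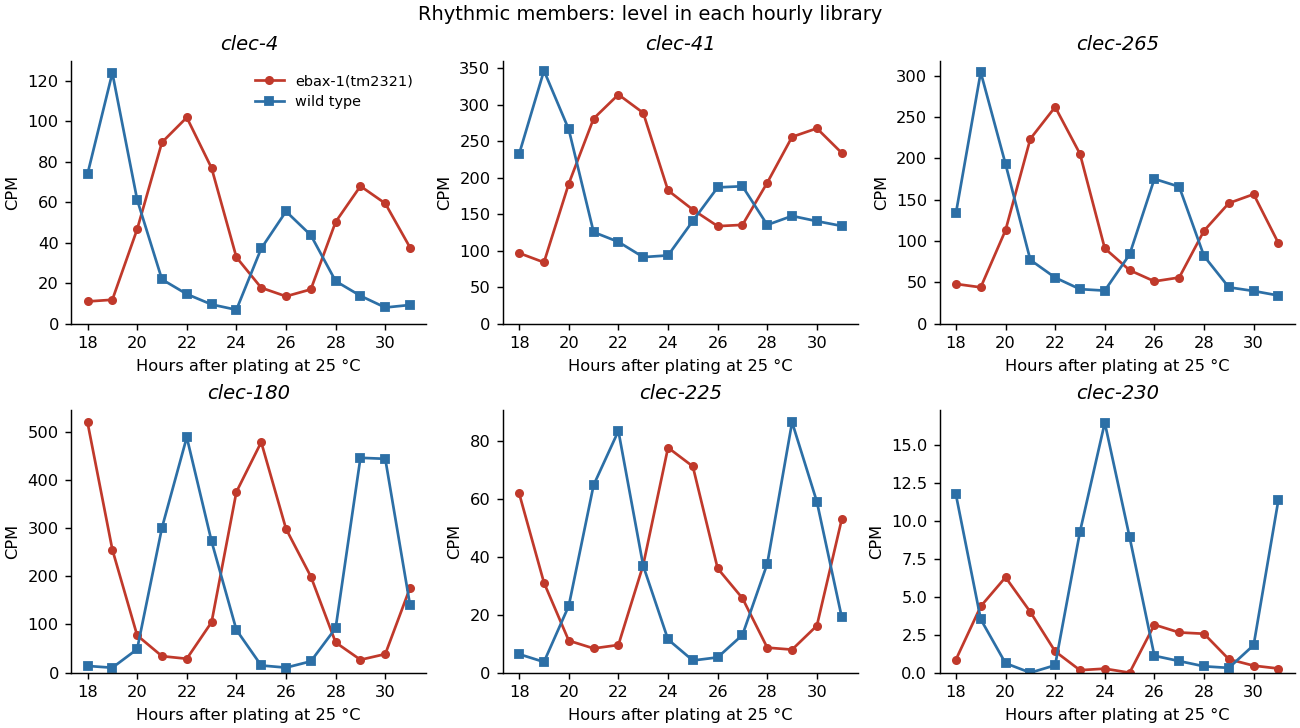
Level in CPM (vertical axis) of 6 rhythmic members in each hourly library against hours after plating (horizontal axis), with red circles for *ebax-1(tm2321)* and blue squares for wild type. *clec-4*, *clec-41* and *clec-265* are highest at 22 h in the mutant and at 19 h in wild type, while *clec-180* and *clec-225* are low at those hours. *clec-230* reaches 6.28 CPM in the mutant and 16.4 CPM in wild type.

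Amplitude differed widely among these members. In the mutant, amplitudes of called members ran from 0.53 to 2.06 log2 (median 0.75), and in wild type from 0.53 to 4.28 log2 (median 1.07). Of the 18 members oscillating in both, the mutant amplitude was the smaller one in 14 (median ratio 0.747), and over all 2038 genes oscillating in both the median ratio was 0.749. The smaller amplitude was thus found in 77.8% of these members, against 89.7% of all genes oscillating in both. *clec-180* had an amplitude of 1.99 log2 in the mutant and 2.86 log2 in wild type (adjusted p = 1.9e-05 and 1.54e-06). For *clec-225* the amplitude was 1.58 log2 in the mutant and 2.09 log2 in wild type, and for *clec-230*, with libraries at 0 in both genotypes, 2.06 log2 in the mutant and 3.06 log2 in wild type. The largest gap belonged to *clec-238*, at 1.70 log2 in the mutant and 4.28 log2 in wild type, a gene that was at 0.137 CPM at its lowest in the mutant and at 0 in some wild-type libraries, so that its fitted amplitude leans on few reads. Without the library of 27 h, *clec-238* lost its call in the mutant (amplitude 1.53 log2). *clec-78* lost its call in 3 of 22 alternatives in the mutant and in 2 of 22 in wild type. On log2 values plus 8 (limma), which damp genes with few reads, the amplitude of *clec-230* was 1.06 log2 in the mutant and 1.86 log2 in wild type, and that of *clec-238* was 0.88 log2 in the mutant and 1.44 log2 in wild type. The members whose amplitude was not smaller in the mutant were *clec-4* (1.43 against 1.40 log2 in wild type), *clec-67* (0.92 against 0.55 log2), *clec-66* (0.68 against 0.53 log2) and *clec-80* (0.77 against 0.74 log2).

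The fitted peaks of the 18 members lay at a similar lag in the mutant. The lag ran from 2.49 to 3.42 h with a median of 2.90 h. For *clec-180* the lag was 2.91 h, for *clec-4* 2.84 h, for *clec-230* 2.96 h and for *clec-204* 3.42 h. The period was held at 7 h and lags were taken within 1 period. The lag over all genes oscillating in both was not taken.

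**Figure D2:**
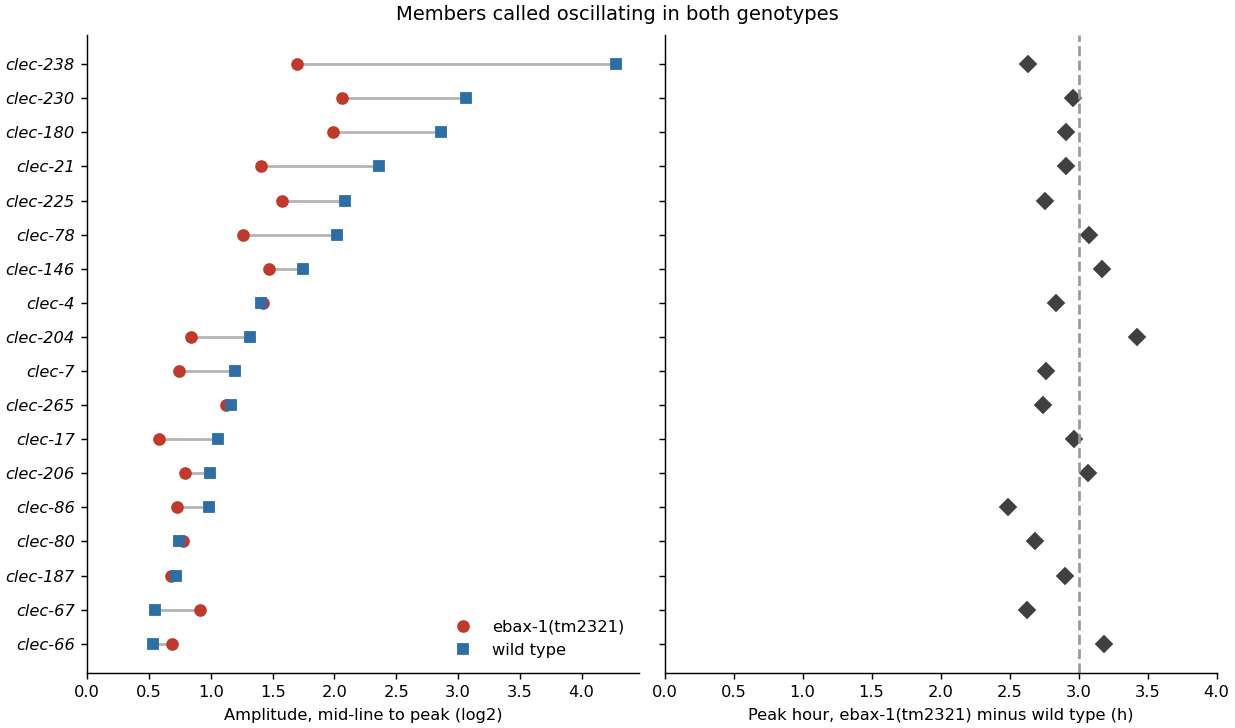
The 18 members oscillating in both genotypes, 1 per row. The left panel gives the amplitude in log2 for *ebax-1(tm2321)* (red circles) and wild type (blue squares), and 14 of the 18 circles lie to the left of their square. The right panel gives the fitted peak hour of the mutant minus that of wild type in h (diamonds), which lies between 2.49 and 3.42 h, around the 3 h used for matching (dashed line).

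A call in 1 genotype and not in the other does not show that the rhythm differed, so the difference itself was tested at matched stage. No member passed (0 of 88 by edgeR, 0 by DESeq2 and 0 by limma). Of all genes, 0.0293% passed by edgeR, 0.849% by DESeq2 and 0.0366% by limma. The count of 0 depends on the shift of 3 h: it was 20 members (22.7%, all genes 15.96%) with the mutant matched 2 h later and 14 (15.9%, all genes 16.8%) with 4 h. At an unadjusted p under 0.05 by edgeR there were 14 members (15.9%), against 13.9% of all genes tested. The lowest adjusted p among members was 0.0600, for *clec-28*, whose matched amplitude was 0.09 log2 in the mutant and 1.07 log2 in wild type. Its 11 matched values ran from 1.89 to 5.35 CPM in the mutant (median 3.54) and from 0.639 to 4.46 CPM in wild type (median 1.18), the highest wild-type values being those of 25 h and 26 h. The 9 members called in the mutant alone were *clec-1*, *clec-41*, *clec-42*, *clec-60*, *clec-87*, *clec-165*, *clec-166*, *clec-169* and *clec-227*. Those called in wild type alone were *clec-5*, *clec-8*, *clec-28*, *clec-79*, *clec-82*, *clec-89*, *clec-123*, *clec-205* and *clec-210*.

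Gradual change was asked in the same fit, and a member was called rising or falling when the linear term passed an adjusted p of 0.01 and the fitted line moved by 1 log2 or more across the 13 h. In the mutant 19 of 87 members (21.8%) rose, where 8.31% of all genes tested did, and in wild type 13 of 87 (14.9%), where 14.9% of all genes did. Falls were called for 3 members in the mutant (3.45%, all genes 4.48%) and for 7 in wild type (8.05%, all genes 6.14%). The mutant count of rises was 11 of 84 when the library of 29 h was left out (all genes 5.94%). In matched windows 10 of 87 members rose in the mutant (11.5%, all genes 7.41%). In wild type 14 of 86 did (16.3%, all genes 8.15%). Wild-type larvae were further developed throughout the 13 h, so the counts of the genotypes describe different windows.

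The steepest rises belonged to 6 members that were almost silent until late in the series, a set chosen after their values were seen. *clec-73*, *clec-79*, *clec-123*, *clec-151* and *clec-119* rose in both genotypes and *clec-142* in wild type, while its low counts kept it out of the test in the mutant. *clec-142* and *clec-151* became members only through wild type, where most of their reads are late, so their wild-type rise is tied to the choice of members. *clec-73* (chromosome IV, 3954030 to 3956195) had at most 0.175 CPM in the mutant up to 27 h and at most 0.374 CPM in wild type up to 24 h. It then reached 24.6 CPM at 31 h in the mutant, and 20.5 CPM at 28 h and 84.6 CPM at 31 h in wild type. *clec-123* (chromosome II, 3114234 to 3116762) had no read in 8 of 10 mutant libraries up to 27 h and in 6 of 7 wild-type libraries up to 24 h, and stood at 16.9 CPM at 31 h in the mutant and at 70.7 CPM at 31 h in wild type. At 31 h, *clec-79* stood at 15.1 CPM in the mutant and 60.5 CPM in wild type, and *clec-151* at 10.8 and 32.8 CPM. *clec-119*, at 7.82 CPM in the mutant and 29.2 CPM in wild type at 31 h, differed from these in that all its early libraries held reads, and its rise in the mutant (adjusted p = 0.00704) lost its call in 11 of 22 alternatives, among them the one without the library of 31 h, with 1.64 to 3.84 log2 over all of them. Levels are given in place of fitted folds because the early libraries of most of these genes held no reads.

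At matched stage the late risers did not differ in a way the test could call. Their summed level was 77.0 CPM in the mutant at 31 h and 72.2 CPM in wild type at 28 h. The mean differences of all 6 failed the test, with the lowest adjusted p at 0.282 for *clec-142*. For *clec-79* and *clec-123* the fit gave no SE, so their failure says nothing about a difference. Genes that mark sperm rose at the same hours. The sum of 5 sperm markers (4 major sperm protein genes and *spe-11*), none of them at 0 in all libraries, reached 34.2 CPM at 31 h in the mutant and 36.6 CPM at 28 h and 292 CPM at 31 h in wild type, after at most 0.873 CPM up to 27 h in the mutant and 0.872 CPM up to 24 h in wild type. The part of sperm-forming cells in the rise of these members was not tested.

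**Figure D3:**
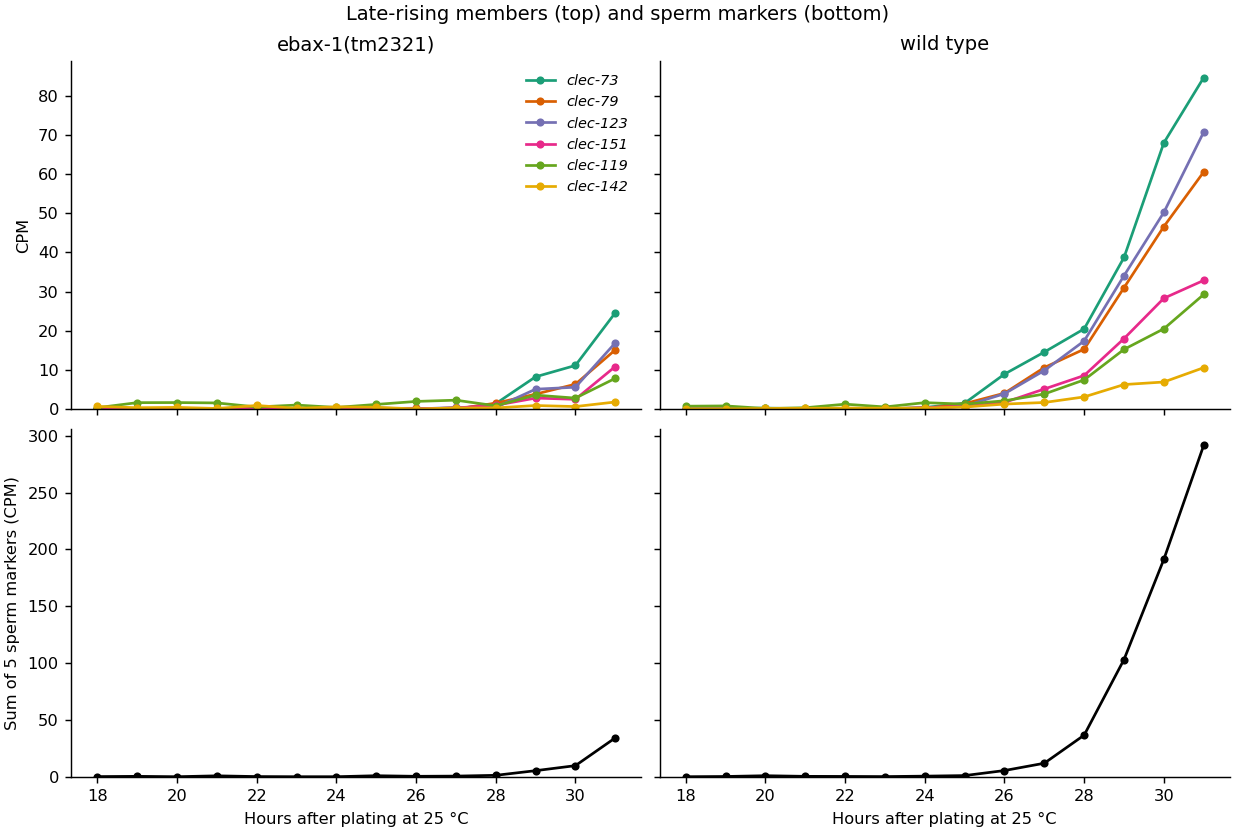
Top, level in CPM of the 6 late-rising members in each hourly library of *ebax-1(tm2321)* (left) and wild type (right); bottom, the summed CPM of 5 sperm markers in the same libraries, with hours after plating on the horizontal axes. *clec-73* reaches 24.6 CPM in the mutant and 84.6 CPM in wild type at 31 h, and the sperm markers sum to 34.2 and 292 CPM at that hour.

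The other rises were smaller, and over the full time courses, which cover different stages, more of them were called in the mutant. Without the late risers, 14 members rose in the mutant and 7 in wild type, and *clec-5*, *clec-88* and *clec-218* did so in both. Matched windows, with all members counted, did not keep this order. There 10 of 87 members rose in the mutant (all genes 7.41%) and 14 of 86 in wild type (all genes 8.15%). Whether the larger mutant count over the full time courses depends on genotype was not tested. *clec-60* changed by 1.97 log2 in the mutant (adjusted p = 0.000555) and by -0.30 log2 in wild type (adjusted p = 0.644). *clec-28* changed by 1.59 log2 in the mutant (adjusted p = 0.00033) and by 1.17 log2 in wild type, where it failed the test (adjusted p = 0.0575). The difference of these slopes was not tested.

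*clec-17* and *clec-149* fell in both genotypes. *clec-17* changed by -1.51 log2 in the mutant (adjusted p = 0.000397) and by -1.99 log2 in wild type (adjusted p = 0.00837), and the wild-type call was lost in 11 of 22 alternatives. *clec-149* changed by -1.15 log2 in the mutant and by -1.23 log2 in wild type (adjusted p = 0.00038 and 4.48e-05). *clec-78* was called falling in the mutant alone, with its highest value, 10.1 CPM, at 18 h, and a change of -2.23 log2. The call was lost in 8 of 22 alternatives, with -2.62 to -1.20 log2 over all of them and -1.41 log2 without the library of 18 h. Called falling in wild type alone were *clec-42* (-3.27 log2), *clec-37* (-2.20), *clec-174* (-2.01), *clec-72* (-1.80) and *clec-67* (-1.30 log2). In the mutant, *clec-42* stood at 18.1 CPM at 18 h and 5.08 CPM at 31 h, and *clec-37* at 3.65 and 2.33 CPM. *clec-174* stood there at 9.24 and 6.31 CPM, *clec-72* at 51.4 and 24.6 CPM, and *clec-67* at 13.5 and 40.9 CPM. The difference of slopes between the genotypes was not tested. Several of these genes sit together on chromosome IV, as described with the clusters.

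Genotype was then compared at matched stage. Of the 88 members, 39 (44.3%) were higher in the mutant on average over the 11 pairs, where 9.73% of all genes tested were, and 4 (4.55%) were lower, where 9.16% of all genes were. The median log2 difference, mutant minus wild type, was 0.42 over the members and 0.04 over all genes, and 71 of 88 members (80.7%) were on the positive side, against 57.4% of all genes. With a size of at least 1 log2, 11 members (12.5%) were higher and 0 lower, where 2.08% and 0.214% of all genes were. Called higher with the mutant library above its wild-type partner in 11 of 11 pairs were 30 members, where 5.09% of all genes tested were. This is 76.9% of the higher members, against 52.3% of all genes called higher. The matched ranges did not overlap in 7 higher members, where this held for 0.435% of all genes tested, or 17.9% of the higher members against 4.47% of all genes called higher. *clec-61* and *clec-75* reached the minimum of 10 reads only through the mutant (mean counts 32.3 and 28.7 in the mutant, 5.5 and 9.14 in wild type), so they had to differ, and without them 37 of 86 members were higher, 9 by at least 1 log2, 28 in all pairs and 5 without overlap. *clec-91*, *clec-142* and *clec-151* reached the minimum only through wild type (mean counts 9.79, 3.93 and 9.14 in the mutant, 14.2, 17.2 and 51.5 in wild type). None of these was called higher or lower. Scaling the libraries by total counts alone left 39 members higher and 3 lower, although it moved the share of higher among all called genes from 51.5% to 68.5% (67.6% with limma on log2 values).

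The sum of the members moved with them. The 88 members summed to 4571 to 5605 CPM in the mutant (median 5105) and to 3142 to 3858 CPM in wild type (median 3724), and the ranges did not overlap. Without *clec-63* the sums were 2426 to 3028 CPM in the mutant (median 2706) and 1816 to 2368 CPM in wild type (median 2180), again without overlap. The sum of 10 intestine markers, none at 0, was 6908 to 8300 CPM in the mutant and 7355 to 9090 CPM in wild type, with 2 of the 10 higher and 6 lower (median difference -0.17 log2). The sum of 6 epidermal markers was 1045 to 10084 CPM in the mutant and 591 to 9791 CPM in wild type, with 4 higher and 0 lower (median difference 0.67 log2). The sum of 4 body wall muscle markers was 7746 to 9356 CPM in the mutant and 9311 to 11728 CPM in wild type, with 0 higher and 2 lower (median difference -0.17 log2). Their part in the differences of the members was not tested.

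**Figure D4:**
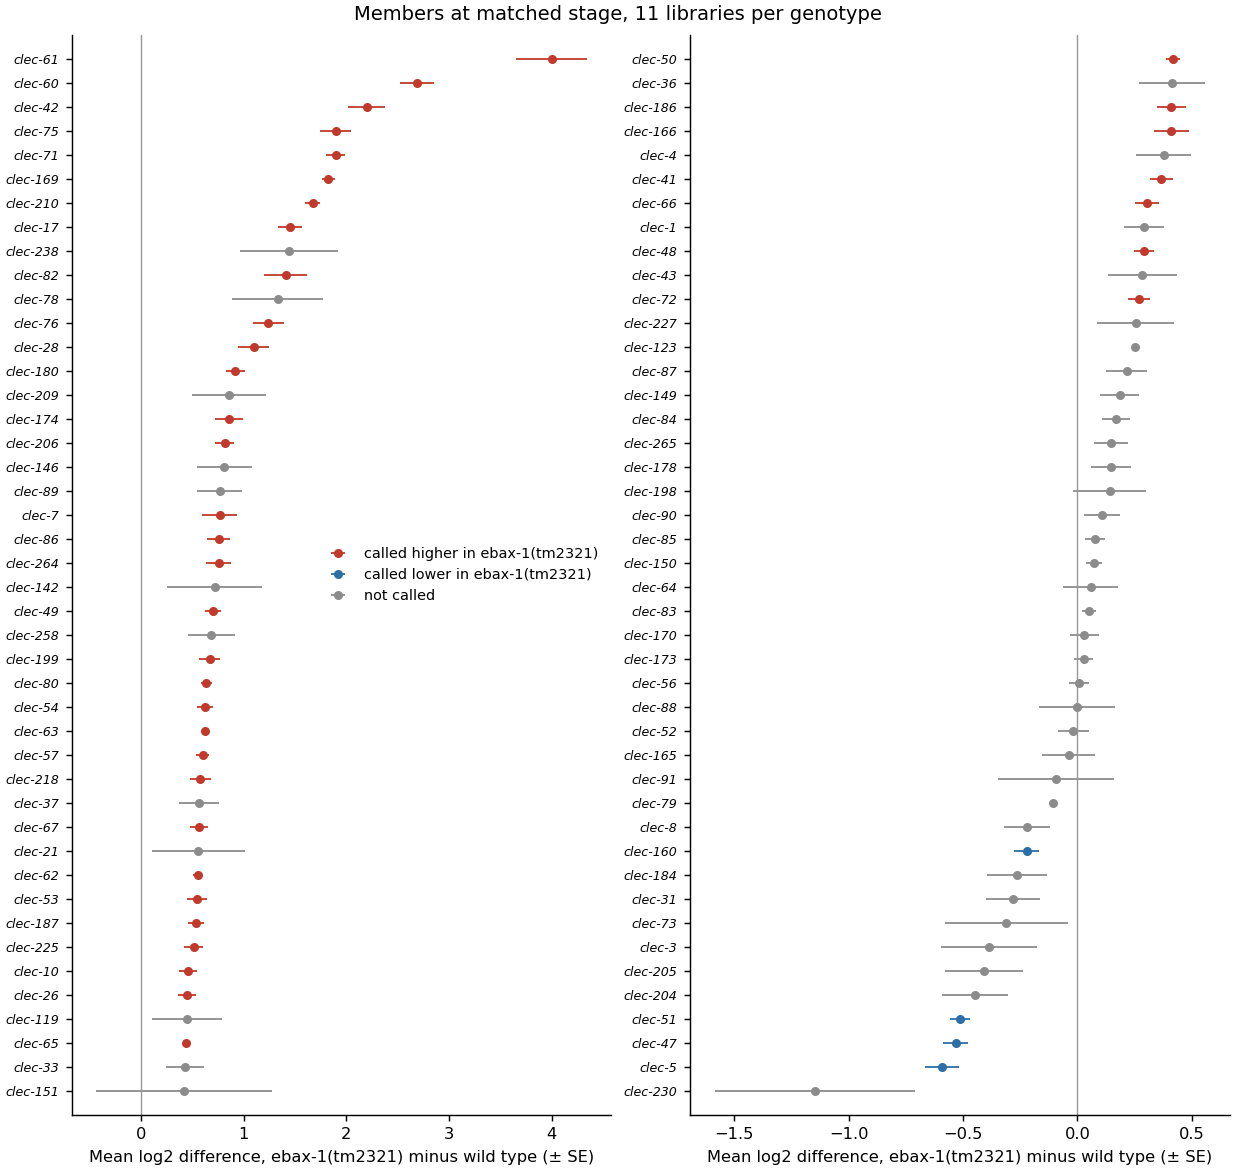
Mean log2 difference at matched stage, *ebax-1(tm2321)* minus wild type, for all 88 members in order of size (larger differences left, smaller right), with bars of ± SE, drawn without a bar for *clec-79* and *clec-123*, for which the fit gave no SE. Red marks the 39 members called higher in the mutant, blue the 4 called lower and grey those not called. *clec-61* has the largest difference (3.998) and *clec-230*, not called, the lowest (-1.15).

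*clec-63*, the most abundant member, had the lowest p of all members that were higher. It ranged from 2126 to 2651 CPM in the mutant (median 2306) and from 1276 to 1556 CPM in wild type (median 1530) at matched stage, so that the lowest mutant library stood above the highest wild-type one. The difference was 0.62 log2 (SE 0.020, adjusted p = 9.29e-10), and its rhythm was not called in either genotype. *clec-65* (chromosome II, 12901325 to 12903336), its neighbour 1 gene away, ranged from 105 to 163 CPM in the mutant (median 129) and from 77.5 to 118 CPM in wild type (median 93.2), a difference of 0.44 log2 (SE 0.027, adjusted p = 1.94e-07). *clec-50* ranged from 295 to 502 CPM in the mutant (median 397) and from 234.9 to 325 CPM in wild type (median 287), a difference of 0.42 log2 (SE 0.030, adjusted p = 7.47e-07).

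The largest differences were in members of low to middling abundance. *clec-61* (chromosome II, 10488730 to 10490537, minus strand, WBGene00014047) had 1.83 to 6.399 CPM in the mutant (median 4.32) and 0 to 0.947 CPM in wild type (median 0.208), without overlap. Its difference was 3.998 log2, with a range of 1.91 (limma on log2 values plus 8) to 4.47 over the alternatives, and the gene owes its place among the members to its mutant reads. In wild type it came up only after the matched window, to 3.81 CPM at 30 h. *clec-60* (chromosome II, 10480043 to 10481874, minus strand, WBGene00014046), known as a gene induced by *Staphylococcus aureus*, had 3.61 to 23.3 CPM in the mutant (median 15.1) and 0.586 to 4.31 CPM in wild type (median 1.95). The pair of genes lies side by side on chromosome II, and *clec-60* was higher in 11 of 11 pairs, although the mutant values of 21 h and 22 h lay inside the wild-type range.

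*clec-169* (chromosome IV, 1261324 to 1264622, plus strand, WBGene00009526) had 25.5 to 74.2 CPM in the mutant (median 42.98) and 8.20 to 20.3 CPM in wild type (median 11.8). The difference was 1.82 log2 (SE 0.065, adjusted p = 1.39e-09), and the ranges did not overlap. *clec-71* (chromosome IV, 3937458 to 3939979, plus strand, WBGene00021582) had 12.5 to 24.2 CPM in the mutant (median 17.01) and 2.17 to 8.88 CPM in wild type (median 4.31), a difference of 1.90 log2 (SE 0.091, adjusted p = 2.49e-08). *clec-210* (chromosome V, 3118377 to 3120323, plus strand, WBGene00022261) had 13.04 to 24.2 CPM in the mutant (median 16.8) and 2.34 to 11.3 CPM in wild type (median 4.50), a difference of 1.67 log2 (SE 0.075, adjusted p = 1.61e-08). All 3 genes were higher in 11 of 11 pairs without overlap, and kept their call in 20 of 20 alternatives.

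*clec-42* (chromosome V, 18191412 to 18194168, plus strand, WBGene00008891) had 4.79 to 23.4 CPM in the mutant (median 5.93) and 0.372 to 5.65 CPM in wild type (median 1.66). Its difference of 2.20 log2 (adjusted p = 2.28e-06) was present in every pair, and the ranges overlapped where the wild-type maximum at 22 h exceeded the lowest mutant values. *clec-75* had 2.42 to 6.45 CPM in the mutant and 0.521 to 1.67 CPM in wild type (1.90 log2), and *clec-76* 4.46 to 11.3 CPM in the mutant and 0.976 to 3.99 CPM in wild type (1.24 log2), both without overlap, *clec-75* being the other member that reached the minimum through the mutant. *clec-17* differed by 1.45 log2, *clec-82* by 1.41 and *clec-28* by 1.10 log2, with overlapping ranges. Of these 3, *clec-28* was higher in 9 of 11 pairs and the others in 11 of 11.

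**Figure D5:**
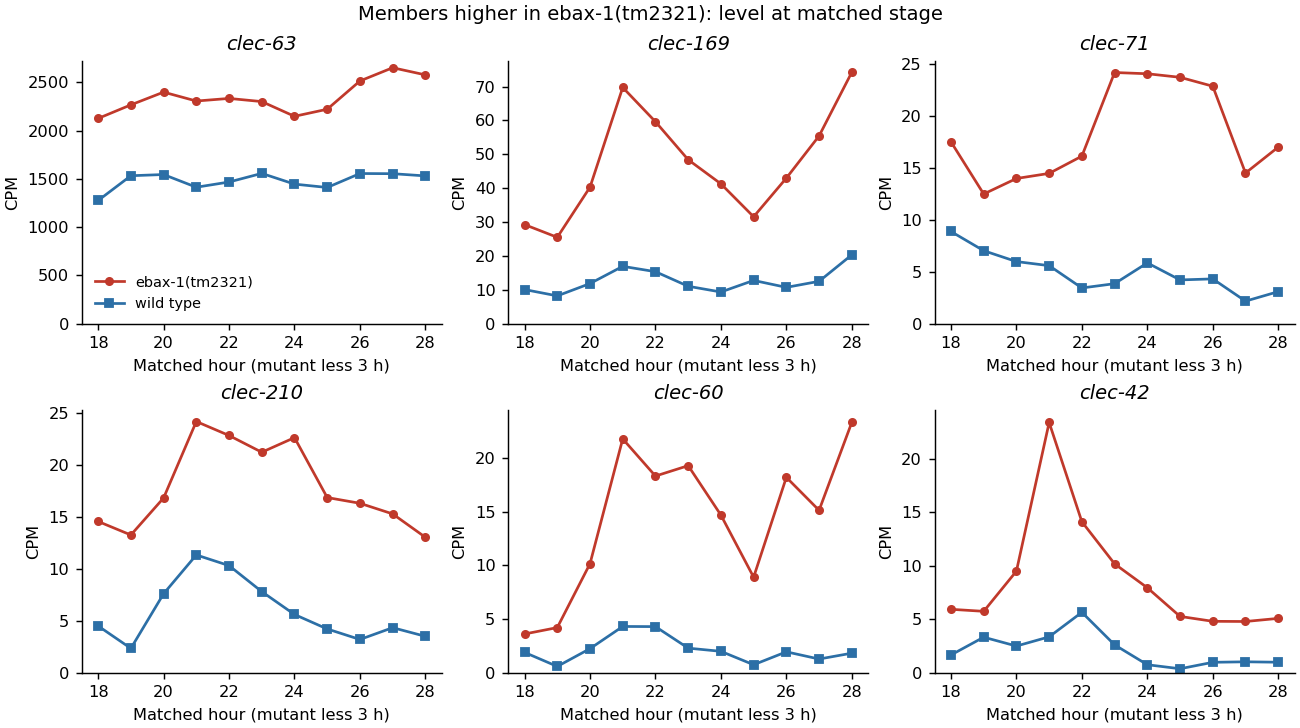
Level in CPM at matched stage of 6 members that were higher in the mutant, with red circles for *ebax-1(tm2321)* and blue squares for wild type; the horizontal axis gives the wild-type hour, and the mutant libraries were taken 3 h later. *clec-63* runs between 2126 and 2651 CPM in the mutant and between 1276 and 1556 CPM in wild type, and *clec-169* between 25.5 and 74.2 CPM in the mutant and between 8.20 and 20.3 CPM in wild type.

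The other 28 higher members differed by less than 1 log2, with a median of 0.56 and 0.27 log2 for the smallest, *clec-72*. Of these calls, 10 of the 39 oscillated in both genotypes and 21 in neither. This average weights troughs and peaks alike, which can make the difference of a rhythmic gene larger than the ratio of its mean levels. For *clec-180* the log2 difference was 0.92 (SE 0.091, adjusted p = 1.14e-05) while the mean CPM was 1.34 times that of wild type, and its call was lost with a spline of 4 components (0.84 log2). For the 10 higher members oscillating in both, the median difference was 0.70 log2 and the median log2 ratio of mean CPM 0.64, and for the 21 oscillating in neither these were 0.60 and 0.63. *clec-238* (1.44 log2, adjusted p = 0.0371) and *clec-78* (1.33 log2, adjusted p = 0.0385) had large fitted values that failed the test, and their matched mean CPM was 0.970 and 1.16 times that of wild type.

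The lower members were *clec-5*, *clec-47*, *clec-51* and *clec-160*. *clec-5* (chromosome III, 4881888 to 4883606) ranged from 25.2 to 67.5 CPM in the mutant (median 35.9) and from 34.1 to 104 CPM in wild type (median 57.1), a difference of -0.59 log2 (SE 0.076, adjusted p = 8.44e-05). *clec-47* (chromosome V, 15175759 to 15176324) ranged from 17.4 to 34.6 CPM in the mutant (median 26.7) and from 21.4 to 53.7 CPM in wild type (median 35.7), a difference of -0.53 log2 (SE 0.054, adjusted p = 1.39e-05). *clec-51* (chromosome IV, 8161953 to 8163800) ranged from 19.8 to 31.3 CPM in the mutant (median 26.3) and from 25.2 to 48.3 CPM in wild type (median 36.5), a difference of -0.51 log2 (SE 0.044, adjusted p = 3.1e-06). The ranges overlapped in all 4, but *clec-47* and *clec-51* were lower in 11 of 11 pairs. *clec-160* differed by -0.22 log2 (adjusted p = 0.00776) and lost its call in 12 of 20 alternatives. *clec-230* had the most negative value, -1.15 log2, with at most 3.99 CPM in the mutant and 16.4 CPM in wild type at matched stage, and failed the test (adjusted p = 0.0647).

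The test of any difference in level or course called 25 members (28.4%), where 5.79% of all genes were called, and all 25 also had a mean difference. *clec-63*, *clec-65*, *clec-169*, *clec-210* and *clec-71* were among them.

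Members that the field has linked to infection or insulin signalling were counted apart. The list was chosen with earlier results of these data known, so its counts are a description and not a test. Of the 26 listed genes, 24 of them members, 18 were higher in the mutant (17 of them members) and 1 lower. Over all genes tested, 9.73% were higher and 9.16% lower. The median of the listed genes was 0.57 log2. In the mutant 10 of them oscillated (all genes 18.3%) and in wild type 8 (all genes 19.5%). *clec-60*, *clec-61*, *clec-42*, *clec-71* and *clec-210* belong to the list, and *clec-47* was the lower one. Of the 64 members outside the list, 22 were higher and 3 lower. *clec-61* in the list and *clec-75* outside it became members only through their mutant reads. Of 21 regulator genes of the p38 MAP kinase, insulin and TGF-beta arms and of related transcription factors and receptors, 3 were higher (14.3%, all genes 9.73%) and 0 lower (all genes 9.16%), with a median of 0.05 log2 (all genes 0.04). The 3 were *atf-7* (0.13 log2), the transcription factor downstream of p38, *vhp-1* (0.19 log2), a phosphatase that opposes the pathway, and *zip-2* (0.22 log2), a bZIP factor of the response to *Pseudomonas aeruginosa*. *zip-2* was also called oscillating in both genotypes, with an amplitude of 0.52 log2 in each, and *sma-3* in the mutant alone (0.51 log2 against 0.48 log2 in wild type). The insulin receptor *daf-2* (0.14 log2), its target transcription factor *daf-16* (0.10 log2) and the kinase *pmk-1* (-0.04 log2) failed the test.

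In the genome, 29 members lie on chromosome V, 28 on IV, 18 on II, 6 on I, 5 on III and 2 on X. Neighbours at most 20000 bases apart, or with no other coding gene between them, formed 14 clusters that held 49 members, and 39 members stood alone. Of the 49 members in clusters 27 were higher and 1 lower, and of the 39 alone 12 were higher and 3 lower. Over all genes tested, 9.73% were higher and 9.16% lower. The 27 include *clec-61* and *clec-75*, which became members only through their mutant reads. Whether clustered members differ from the others was not tested. Neighbours can share sequence, and the counting of reads that fit several copies is not described in the sources used here, which leaves values within a cluster uncertain.

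The largest cluster, with 9 members, spans bases 3922165 to 4014235 of chromosome IV and holds in order *clec-67*, *clec-71*, *clec-174*, *clec-72*, *clec-73*, *clec-75*, *clec-76*, *clec-79* and *clec-78*. Its members behaved in several ways. *clec-71*, *clec-75*, *clec-76*, *clec-174*, *clec-67* and *clec-72* were higher in the mutant, by 1.90 to 0.27 log2. *clec-67* and *clec-78* were called oscillating in both genotypes, *clec-67*, *clec-72* and *clec-174* fell in wild type, and *clec-73* and *clec-79* were among the late risers. *clec-72*, for example, had 22.1 to 52.6 CPM in the mutant (median 44.8 over 14 libraries) and 9.23 to 44.9 CPM in wild type (median 24.7), with the lowest value at 30 h in the mutant and at 31 h in wild type.

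The cluster of *clec-62* to *clec-66* on chromosome II (12893062 to 12906644) had 4 of 5 members higher, by 0.30 to 0.62 log2. *clec-64*, between *clec-63* and *clec-65*, was at 0.06 log2 and failed the test, and *clec-66* alone of the 5 oscillated in both genotypes. In the cluster of *clec-165* to *clec-170* on chromosome IV (1245171 to 1274425), 2 of 4 members were higher, *clec-169* and *clec-166*. Of the 6 members between 16846811 and 16869840 on chromosome V, *clec-28* and *clec-26* were higher.

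Of the 88 members, 70 had at least 1 of these calls. The 18 without any were *clec-3*, *clec-31*, *clec-33*, *clec-43*, *clec-52*, *clec-56*, *clec-64*, *clec-83*, *clec-84*, *clec-85*, *clec-90*, *clec-150*, *clec-170*, *clec-173*, *clec-178*, *clec-184*, *clec-198* and *clec-258*. They had 1.95 to 93.4 CPM on average (median 8.32), and *clec-150* (93.4 CPM) and *clec-83* (77.1 CPM) were the most abundant of them. *clec-85*, widely used as a target gene of the p38 pathway, is in this group.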

How the data were processed

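Per the labels, poly(A) RNA was made into stranded libraries (Illumina Stranded mRNA Prep) and sequenced in pairs. The authors aligned reads to genome build ce10 with HISAT2 through QuasR (the submitters' processing notes give HISAT2 and ce10, and no version) and counted first reads per gene over WS220 exons in the orientation of the kit. The deposited counts are raw reads per gene, and the tests used these. The deposited log2 values were not used. How reads that fit several genes were counted is not given in the sources used here.

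CPM is the count scaled to a library total of 1000000. The table of gene names matched 19182 genes and the WBcel235 annotation 19870, and 0 library pairs held identical values. Tests were run in R 4.3.3 with edgeR 4.0.16 (TMM, filterByExpr, quasi-likelihood F tests, Benjamini-Hochberg over all genes, threshold 0.01). Rhythm: cosine and sine of 7 h plus a linear term, per genotype. Genotype: cubic B-spline of 6 components, genotype and interaction (14 parameters, 8 residual degrees of freedom) on 11 pairs, or 7 degrees of freedom for any difference. Simulated data were used only for the edgeR tests of a mean difference, of a different rhythm and of oscillation in the matched wild-type hours. Gradual change, any difference, the mutant rhythm and the DESeq2 and limma fits were not simulated. Rates of recovery and of false calls are not reported. Alternatives were DESeq2 1.42.0, limma 3.58.1 on log2 values plus 8, other scalings, filters, periods, splines, trends, shifts and windows, and leaving out each hour or pair.

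Named genes were those with a mean difference of at least 1 log2, the 10 largest amplitudes and 5 largest rises and falls per genotype, the 5 most abundant, and the 5 with the lowest p for a mean difference in each direction. Other genes were named after their values were seen. The members, lists and tests were chosen with earlier results of these data known.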

Additional observations from a re-analysis of the deposited data

How the results depend on the processing

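Counting restricted to the 54 members with a mean count of at least 50 gave 17 oscillating in the mutant and 16 in wild type, 11 rising and 1 falling in the mutant, and 3 falling in wild type. The share of all genes at that minimum was not taken, so these counts have no background beside them. In matched windows alone, 10 members rose (all genes tested 7.41%) and 6 fell (4.14%) in the mutant. In wild type 14 rose (8.15%) and 8 fell (4.20%). Leaving out each hour in turn gave 11 to 19 rising in the mutant (all genes 5.94% to 8.25%). The count was 11 without 29 h, where fewer members (84) were tested. At the same hour, without the 3 h shift, 7 members were lower (all genes 13.6%), 75 (85.2%) had any difference (all genes 60.3%) and 57 (64.8%) a different rhythm (all genes 41.95%). With the mutant matched 2 h later, 45 (51.1%) had any difference (all genes 23.4%) and 20 (22.7%) a different rhythm (15.96%). With 4 h later these were 44 (all genes 19.6%) and 14 (16.8%), and DESeq2 gave 39 with any difference (12.4%). Leaving out each pair gave 17 to 26 members with any difference (all genes 2.23% to 6.52%). It left 37 to 41 members higher (all genes 6.55% to 10.2%) and 3 to 4 lower (all genes 7.64% to 8.85%). The cause of these shifts was not tested. Of 59 single values of named members, 49 kept their direction, and their call where they had one, under every alternative that gave a value. Another 10 lost the call under at least 1, and 0 reversed. Some of the 59, such as the mean difference of *clec-265*, had no call to lose. Not every value was obtained in all alternatives: the change of *clec-123* in the mutant had 19, that of *clec-119* had 22. Depth limits the members under 3 CPM most, where 1 read changes a value by a sizeable share.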
